A study of Mus musculus with 12 samples.

Results

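Genes of the cell cycle and of proliferation were followed in mouse kidney RNA. They were 42 genes among the 21899 of the deposited table, found by mouse Ensembl identifier and symbol, and each of the 42 had a row. By role 14 act in S phase, 22 in mitosis (with Mki67, Top2a and Ccna2, which are made from S phase to mitosis), 5 are G1 cyclins and kinases, and 1, Stmn1, regulates tubulin. Poly(A) RNA was sequenced in 12 libraries, 3 in each of 4 groups. The first group held db/db mice, homozygous for a leptin receptor mutation that makes mice obese and diabetic, labelled as having GABP knocked down (db/db-GABP-KD), though Gabpa RNA was not lower there. The second held db/db mice given vehicle (db/db-veh), named in the series text as the diabetic kidney disease group. The third held db/m mice, lean carriers of the same mutation, labelled as overexpressing GABP (db/m-GABP-OE). The last held db/m mice given vehicle (db/m-veh), the normal controls. GABP is a transcription factor of the ETS family, whose subunit Gabpa binds DNA. The means of raising or lowering GABP, and the age and sex of the mice, are not stated in the labels. Kidney tissue came from 6 mice a group and was pooled from 3 mice per extraction, so 3 separate pools would share animals. The p-values therefore measure only the spread between these libraries, which may be technical.

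In a dividing cell, D-type cyclins with Cdk4 and cyclin E with Cdk2 inactivate the retinoblastoma protein in G1, and the E2F factors so released switch on genes for DNA replication. Genes for mitosis peak later, under B-MYB, FOXM1 and the MuvB complex, often through a CHR element (cell cycle genes homology region) and CCAAT boxes. The adult kidney divides little, and its tubule cells are known to re-enter the cycle after injury.

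Promoters are shown for 6 members, picked as examples. Mki67, Top2a, Cenpa and Cdk1 are mitosis genes with no overlap, as deposited, between the db/m-GABP-OE and db/m-veh libraries. The same held for Plk1, Ube2c, Aurkb, Tpx2 and Cenpe, which are not shown. Mcm6 and Mcm3 are the S phase genes with the largest fold changes in that comparison. Each promoter is 250 bases before to 50 bases after the start, 5′ to 3′, from RefSeq on GRCm38.p6. Capitals mark, on either strand, the CHR letters TTTGAA, the CCAAT box (bound by NF-Y), the E2F letters TTTCCCGC or TTTGGCGC, and the letters CCGGAAG that GABP and other ETS factors bind. The windows are chr7:135716330-135716629 (minus strand) for Mki67, chr11:99024140-99024439 (minus strand) for Top2a, chr5:30666636-30666935 (plus strand) for Cenpa, chr10:69352863-69353162 (minus strand) for Cdk1, chr1:128359656-128359955 (minus strand) for Mcm6 and chr1:20820263-20820562 (minus strand) for Mcm3. No matches to different motifs overlap in these windows.
Mki67: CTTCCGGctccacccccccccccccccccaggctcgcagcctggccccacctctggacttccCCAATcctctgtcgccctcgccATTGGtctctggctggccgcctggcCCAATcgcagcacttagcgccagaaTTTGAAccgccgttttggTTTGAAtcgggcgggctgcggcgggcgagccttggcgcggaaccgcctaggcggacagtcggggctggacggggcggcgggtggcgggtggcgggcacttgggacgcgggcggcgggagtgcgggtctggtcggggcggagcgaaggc
Top2a: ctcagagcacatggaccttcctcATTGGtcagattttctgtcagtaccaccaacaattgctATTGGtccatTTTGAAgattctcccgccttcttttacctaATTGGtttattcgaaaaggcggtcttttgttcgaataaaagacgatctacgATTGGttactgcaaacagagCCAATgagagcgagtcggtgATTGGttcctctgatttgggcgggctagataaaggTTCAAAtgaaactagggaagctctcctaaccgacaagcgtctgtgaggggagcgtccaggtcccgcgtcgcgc
Cenpa: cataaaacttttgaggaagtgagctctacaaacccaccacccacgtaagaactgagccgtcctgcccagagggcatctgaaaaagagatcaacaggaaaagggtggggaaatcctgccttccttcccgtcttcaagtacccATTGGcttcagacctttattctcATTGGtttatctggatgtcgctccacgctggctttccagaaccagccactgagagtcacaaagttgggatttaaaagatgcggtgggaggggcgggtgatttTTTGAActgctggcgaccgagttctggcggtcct
Cdk1: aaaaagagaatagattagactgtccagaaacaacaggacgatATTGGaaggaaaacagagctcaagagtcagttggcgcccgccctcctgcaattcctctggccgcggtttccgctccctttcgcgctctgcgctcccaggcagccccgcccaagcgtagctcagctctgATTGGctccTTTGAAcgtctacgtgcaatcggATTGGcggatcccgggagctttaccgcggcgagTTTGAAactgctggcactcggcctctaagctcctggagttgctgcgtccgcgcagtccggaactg
Mcm6: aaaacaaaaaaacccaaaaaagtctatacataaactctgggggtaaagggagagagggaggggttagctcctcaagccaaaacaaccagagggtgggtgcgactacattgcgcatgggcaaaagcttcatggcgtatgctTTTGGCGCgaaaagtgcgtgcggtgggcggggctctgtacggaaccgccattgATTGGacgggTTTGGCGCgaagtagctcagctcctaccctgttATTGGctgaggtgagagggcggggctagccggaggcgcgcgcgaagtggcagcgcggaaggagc
Mcm3: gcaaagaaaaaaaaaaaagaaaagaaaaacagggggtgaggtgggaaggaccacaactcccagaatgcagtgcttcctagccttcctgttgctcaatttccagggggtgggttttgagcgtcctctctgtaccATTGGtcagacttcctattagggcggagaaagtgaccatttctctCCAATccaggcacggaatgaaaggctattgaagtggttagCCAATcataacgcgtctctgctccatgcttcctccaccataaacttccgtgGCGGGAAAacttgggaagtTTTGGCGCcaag

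Promoter sequences were at hand for 33 of the 42 members, 13 of S phase, 17 of mitosis and 3 of G1. Among them the motifs parted the roles. An E2F match stood in 6 of 13 S phase genes (46.2%) and 0 of 17 mitosis genes, against 1.80% of 27025 genes. The CHR letters stood in 2 of 13 S phase genes (15.4%) and 13 of 17 mitosis genes (76.5%), against 20.2% of all genes. CCAAT was present in 9 of 13 (69.2%) and 16 of 17 (94.1%), against 41.1%. The ETS letters were found in 1 S phase gene (Tyms) and 4 mitosis genes (Aurka, Cdc20, Cenpf and Mki67), against 9.93% of all genes. In Mki67 that match is the first bases of the window, 250 bases before the start, upstream of 3 CCAAT and 2 CHR matches. Top2a has 6 CCAAT matches and Cdk1 has 3, each with 2 CHR matches. A match describes the letters of the window and does not show that a factor binds.

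**Figure D1:**
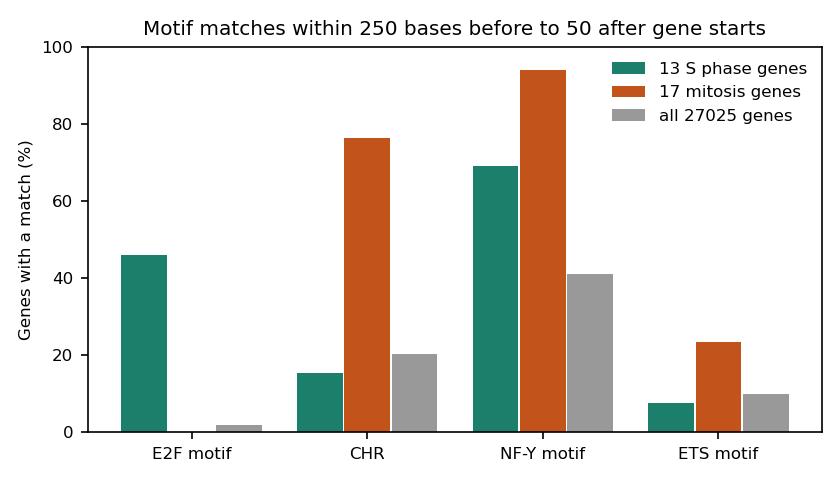
Share of genes (%) with a match to each of 4 motifs, within 250 bases before to 50 after the gene start, for 13 S phase genes, 17 mitosis genes and all 27025 genes of the promoter table. E2F matches are in S phase genes (46.2%) and in no mitosis gene, and the CHR is in 76.5% of mitosis genes.

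Depth limits what can be said of genes this low. Libraries held 6.78 to 9.70 M fragments (1 M is 1000000), of which 13 mitochondrially encoded genes took 47.9% to 86.0%, so that nuclear genes were left with 1.08 (db/db-veh 2) to 4.39 M (db/db-GABP-KD 1). FPKM divides by all fragments, mitochondrial ones included. Over the 12897 genes tested the log2 fold changes had a median of 0.42 in the libraries labelled db/db-GABP-KD (over db/db-veh), -0.24 in db/db-veh and 0.38 in db/m-GABP-OE (both over db/m-veh), and levels were also compared after scaling by median of ratios. Library db/db-GABP-KD 1 stood apart, with a mean correlation of 0.876 to its own group. Gabpa was at 6.62, 2.66 and 3.40 FPKM in the libraries labelled db/db-GABP-KD, against 2.20, 2.17 and 1.63 in db/db-veh, so it was not lower there, and directions drawn from that label carry this doubt. In db/m-GABP-OE it was at 3.45, 3.35 and 3.71, against 1.79, 2.32 and 2.54 in db/m-veh. These Gabpa levels are as deposited, with the shifts of all genes in them. Median of ratios factors ran from 1.26 to 1.33 in db/m-GABP-OE and from 0.825 to 1.08 in db/m-veh. Scaled levels of Gabpa were not compared, so neither label is settled by these values. All 31 markers of nephron segments and podocytes were above 0 in each group.

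Of the 42 members 33 reached FPKM 0.3 in at least 3 libraries, the level set for testing. The 2 main roles differed: 13 of 14 S phase genes reached it, all but Cdc6, a loading factor for the replicative helicase, and 14 of 22 mitosis genes did. The mitosis genes below it were Top2a, Cenpe and Tpx2 (0.3 or more in 2 libraries each), Ccnb1 (in 1), and Bub1, Cenpf, Kif11 and Kif20a (in none). All 5 G1 genes and Stmn1 reached it. Just inside were Aurkb, Foxm1 and Ccne1, at or above 0.3 in 3 libraries. The median of the members' mean FPKM was 0.759 for S phase, 0.261 for mitosis and 1.41 for the G1 genes, and 2.21 for all genes tested, so the typical member is a low gene in this tissue. In fragments, a mitosis gene had a median of 117 over the 12 libraries together, and an S phase gene 399.5. Over all roles 15 members had under 120 fragments in total, and 14 had at least 1 library with none. Only 9 had a mean FPKM of at least 1, namely Cdk4, Pcna, Ccnd1, Kif23, Stmn1, Mcm7, Cdk2, Cdt1 and Mcm6.

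**Figure D2:**
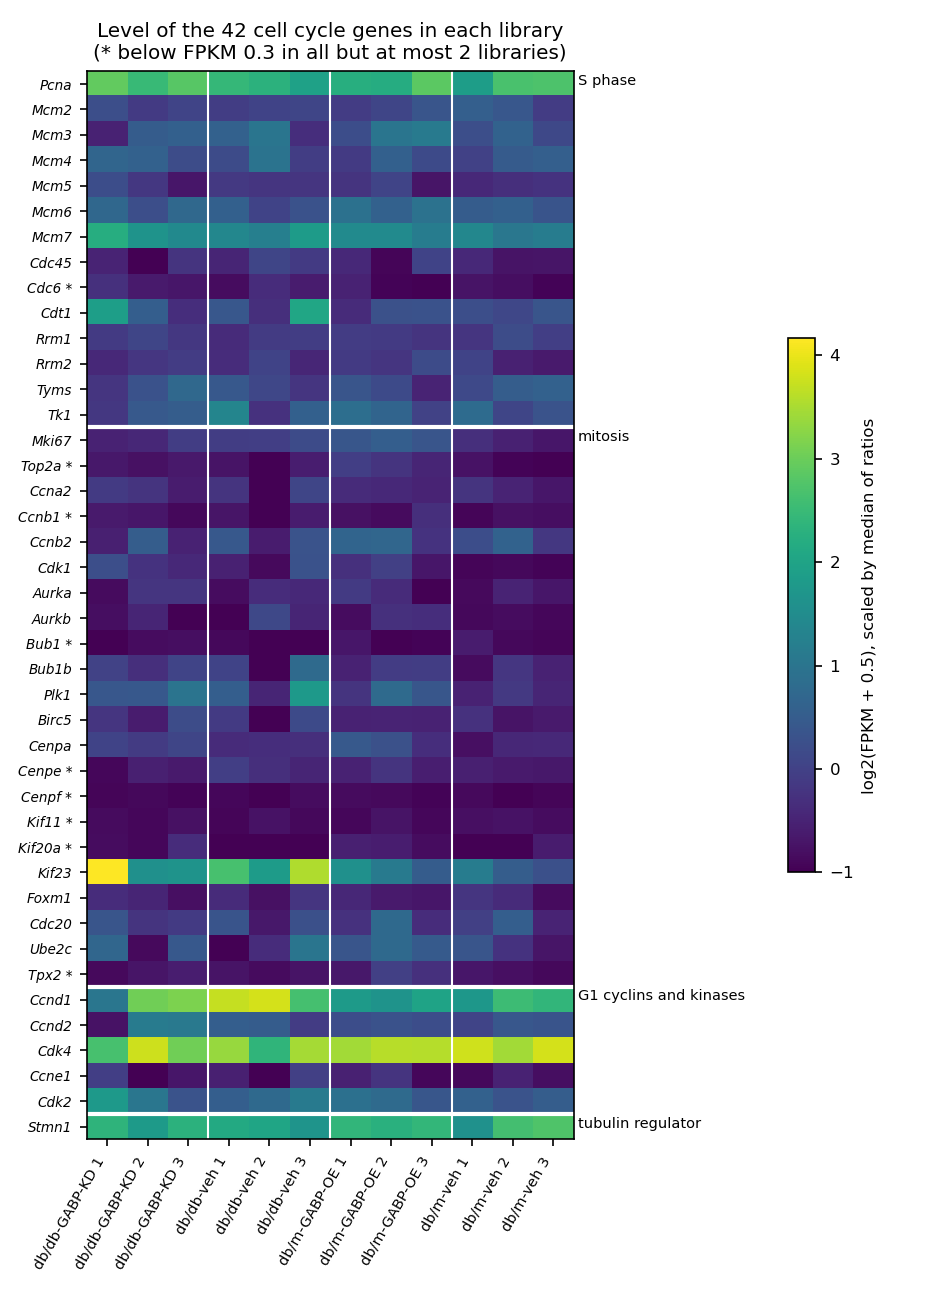
Level of each of the 42 members in each library, as log2(FPKM + 0.5) after scaling by median of ratios, with libraries in columns by group and members in rows by role. Asterisks mark the 9 members that did not reach FPKM 0.3 in 3 libraries, 8 of them mitosis genes, and the brightest rows are Cdk4, Ccnd1, Kif23 and Pcna.

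Summed by role, S phase RNA differed between groups in FPKM and less so per nuclear fragment, and mitosis RNA without Kif23 had its lowest mean in db/m-veh on both scales. In FPKM the 14 S phase genes summed to 34.5, 13.1 and 14.6 in the libraries labelled db/db-GABP-KD and to 14.0, 7.24 and 12.1 in db/db-veh, which overlap. They summed to 16.9, 18.5 and 21.3 for the db/m-GABP-OE kidneys, against 12.1, 12.1 and 15.4 for those of db/m-veh, with no overlap. Per 1000000 nuclear fragments, the same 14 had 246, 212 and 218 fragments in the libraries labelled db/db-GABP-KD, 225, 200 and 194 in db/db-veh kidneys, 195, 186 and 188 in db/m-GABP-OE, and 160, 218 and 195 in db/m-veh. The libraries labelled db/db-GABP-KD lie above all of db/m-GABP-OE, every other pair of groups overlaps, and the range of db/m-veh, the widest, covers all of db/m-GABP-OE. The S phase sums lean on Pcna and Mcm7, whose mean FPKM were 5.54 and 2.52, against a median of 0.759 for the 14 genes. Both were kept in. The 22 mitosis genes are dominated by Kif23, which made up 13.4% to 72.7% of their summed FPKM, most in db/db-GABP-KD 1. The mitosis genes were therefore also summed without Kif23. The other 21 had 84.0, 78.6 and 99.6 fragments on this scale in the libraries labelled db/db-GABP-KD, 95.9, 56.4 and 140 in db/db-veh kidneys, 122, 140 and 88.6 in db/m-GABP-OE, and 55.8, 62.9 and 37.2 in db/m-veh. Every db/m-GABP-OE library and every library labelled db/db-GABP-KD lay above every db/m-veh library, and db/db-veh 2 lay within the db/m-veh range. As a ratio of summed FPKM, S phase over mitosis without Kif23 was 2.69 ± 0.399 in the libraries labelled db/db-GABP-KD, 2.79 ± 1.62 in db/db-veh kidneys, 1.98 ± 0.653 in db/m-GABP-OE kidneys and 3.80 ± 1.59 in db/m-veh (SD, n = 3 each), and these ranges overlap. The sums are described and not tested. In tissue of many cell types, fewer dividing cells and less RNA per dividing cell cannot be told apart.

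**Figure D3:**
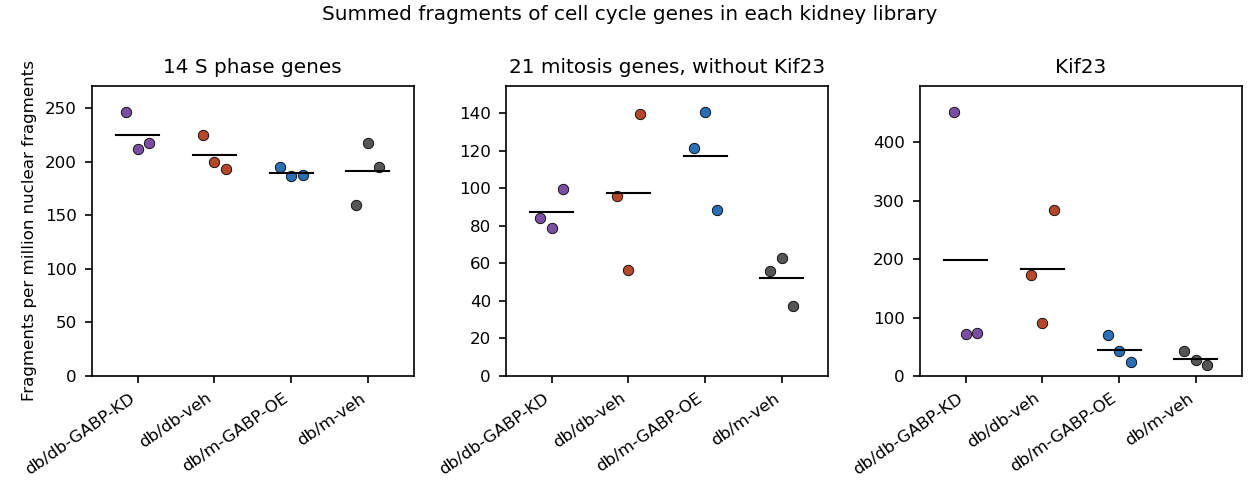
Fragments per 1000000 nuclear fragments in each library (points, mean as a bar) for the 14 S phase genes, the 21 mitosis genes other than Kif23, and Kif23. S phase sums lie between 160 and 246 in all libraries, mitosis sums without Kif23 between 37.2 and 62.9 in db/m-veh and between 88.6 and 140 in db/m-GABP-OE, and Kif23 is highest in db/db-GABP-KD 1.

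Relative to db/m-veh, the db/m-GABP-OE kidneys had 1 member that rose past the test, the proliferation marker Mki67, out of 33 tested (limma on log2(FPKM + 0.5), Benjamini-Hochberg adjusted p under 0.05), where 1.9% of all 12897 genes were called. No S phase, G1 or other mitosis gene passed. At an unadjusted p under 0.05, 8 members were higher and 0 lower, 24.2% of those tested, against 14.5% of all genes higher and 0.504% lower. Libraries did not overlap, all higher, for 10 of 33 members (30.3%), against 30.4% of all genes (0.923% lay lower), a share close to the background. By role that was 6 of 14 mitosis genes, 2 of 13 S phase genes and 2 of 5 G1 genes. After median of ratios it was 5 of 33 (15.2%), against 9.72% of all genes, with 4 of 14 for mitosis and 1 of 13 for S phase, and 0 members passed the test (0.209% of genes did). Over all 42 members, without the filter, the median log2 fold change was 0.38 for mitosis and 0.25 for S phase, with 0.28 for all genes. After median of ratios, over the members tested, the mitosis median lay 0.30 above that of all genes and the S phase median stood at -0.03 relative to it, and the gap between the roles was not tested.

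The db/db-veh kidneys had 0 of 33 members past the same limma test against db/m-veh, where 0.093% of all genes (12) were called, and voom on recovered fragments called 0 members too. At an unadjusted p under 0.05, 1 member was higher (Kif23, against 0.799% of genes) and 1 lower (Cdk4, against 10.7%). Of the 33, only Mcm2 had libraries that did not overlap, all lower (3.03%, against 14.4% of genes), and 0 were higher (1.46% of genes). After median of ratios 0 members passed (0.171% of genes did), and 6 of 33 members (18.2%) lay higher with no overlap, against 8.3% of genes: Mki67, Cdk1, Cenpa and Kif23 of mitosis, Mcm5 of S phase and Ccnd1 of G1. Over all 42 members the median log2 fold change was 0.05 for mitosis and -0.08 for S phase, with -0.13 for all genes. After median of ratios, over the members tested, the mitosis median lay 0.20 above that of all genes and the S phase median 0.09 above it. The gap between the roles was not tested here either.

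The libraries labelled db/db-GABP-KD also had 0 of 33 members past the limma test against db/db-veh, where 0% of all genes were called, while 1765 genes were higher and 74 lower at an unadjusted p under 0.05. Unadjusted, 2 members were higher (Pcna and Cenpa, 6.06% of those tested, against 13.7% of genes) and 0 lower (0.574% of genes), and voom on fragments called 0. Rrm2 and Cenpa lay higher with no overlap, 2 of 33, against 17.3% of genes, and 0 lay lower (0.822% of genes). After median of ratios 0 members passed (0.0388% of genes did) and 2, Pcna and Cenpa, lay higher with no overlap (4.63% of genes). Over all 42 members the median log2 fold change was 0.17 for mitosis and 0.36 for S phase, with 0.28 for all genes. After median of ratios both role medians were within 0.03 of that of all genes. This comparison and the db/db-veh one share the db/db-veh libraries, and that one shares db/m-veh with the db/m-GABP-OE comparison, so their fold changes are not independent.

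**Figure D4:**
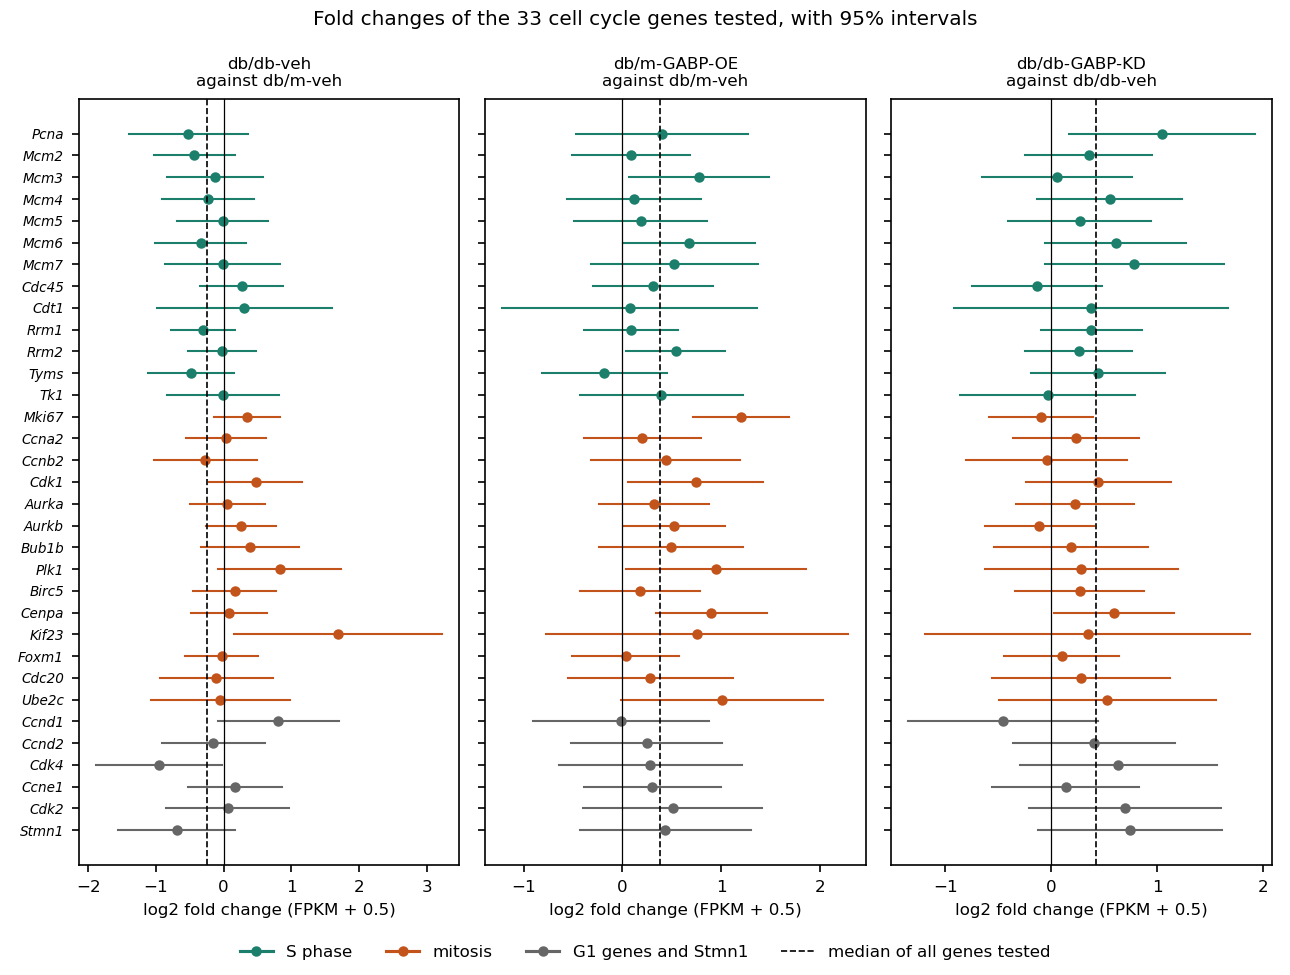
Log2 fold changes with 95% intervals (limma, log2(FPKM + 0.5), as deposited) of the 33 members tested, by role, in the 3 comparisons, with the median of all genes as a dashed line. Most intervals take in 0 in each comparison, and Mki67 stands out to the right for db/m-GABP-OE over db/m-veh.

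The S phase genes were followed first by their place in replication. Mcm2 to Mcm7 form the hexamer of the replicative helicase, which unwinds DNA. Mcm7, the most abundant of the 6 per length, was at 7.09, 2.34 and 2.02 FPKM in the libraries labelled db/db-GABP-KD, 1.97, 0.968 and 2.44 FPKM in db/db-veh kidneys, 2.85, 2.96 and 2.31 FPKM in db/m-GABP-OE kidneys and 2.05, 1.29 and 1.89 FPKM in db/m-veh. Its highest library is db/db-GABP-KD 1, the db/m-GABP-OE libraries all lie above those of db/m-veh, and db/db-veh overlaps both its partners. Mcm6 was at 1.95, 0.599 and 1.07 FPKM in the libraries labelled db/db-GABP-KD, 0.916, 0.278 and 0.586 FPKM in db/db-veh kidneys, 1.76, 1.33 and 1.90 FPKM in db/m-GABP-OE kidneys and 0.891, 0.818 and 0.826 FPKM in db/m-veh. The db/m-GABP-OE libraries again lie above db/m-veh without overlap, with 210 fragments in db/m-GABP-OE, against 100 in db/m-veh, a ratio of 1.94 (95% interval 1.53 to 2.49) per fragment sequenced and 1.43 (1.12 to 1.83) per nuclear fragment. Intervals of fragment ratios, here and below, pool the libraries of a group and hold counting error alone, without the spread between libraries. The log2 fold change of Mcm6 was 0.67 (95% interval 0.00 to 1.34, limma adjusted p = 0.328). Mcm3 was at 0.347, 0.807 and 0.910 FPKM in the libraries labelled db/db-GABP-KD, 0.943, 0.795 and 0.243 FPKM in db/db-veh kidneys, 0.826, 1.98 and 2.23 FPKM in db/m-GABP-OE kidneys and 0.670, 0.860 and 0.628 FPKM in db/m-veh. Library db/m-GABP-OE 1 falls within the db/m-veh range, and the log2 fold change of 0.77 (95% interval 0.06 to 1.48, limma adjusted p = 0.285) was the largest of S phase in that comparison.

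The other subunits moved less in db/m-GABP-OE. Mcm2 was at 1.16, 0.369 and 0.491 FPKM in the libraries labelled db/db-GABP-KD, 0.424, 0.280 and 0.449 FPKM in db/db-veh kidneys, 0.557, 0.726 and 1.04 FPKM in db/m-GABP-OE kidneys and 0.959, 0.675 and 0.477 FPKM in db/m-veh. It was lower in every db/db-veh library than in any db/m-veh library, with a log2 fold change of -0.43 (95% interval -1.03 to 0.17, limma adjusted p = 0.600), which did not pass, and after median of ratios the libraries overlap. Mcm4 was at 1.88, 0.909 and 0.594 FPKM in the libraries labelled db/db-GABP-KD, 0.575, 0.759 and 0.363 FPKM in db/db-veh kidneys, 0.524, 1.29 and 0.811 FPKM in db/m-GABP-OE kidneys and 0.487, 0.736 and 1.04 FPKM in db/m-veh. Mcm5 was at 1.13, 0.350 and 0.107 FPKM in the libraries labelled db/db-GABP-KD, 0.369, 0.195 and 0.293 FPKM in db/db-veh kidneys, 0.444, 0.697 and 0.146 FPKM in db/m-GABP-OE kidneys and 0.246, 0.257 and 0.375 FPKM in db/m-veh. Both overlap in each comparison as deposited, and Mcm5 is the lowest of the 6, with 156 fragments in all 12 libraries. In the libraries labelled db/db-GABP-KD the 6 log2 fold changes against db/db-veh ran from 0.06 (Mcm3) to 0.79 (Mcm7), around the 0.42 of all genes, and no subunit passed the test in any of the 3 comparisons.

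Pcna, the sliding clamp that holds DNA polymerase on its template, was the best measured S phase gene, with 1327 fragments. It was at 12.1, 4.51 and 5.98 FPKM in the libraries labelled db/db-GABP-KD, 4.55, 2.38 and 2.71 FPKM in db/db-veh kidneys, 5.31, 5.32 and 8.93 FPKM in db/m-GABP-OE kidneys and 3.10, 4.89 and 6.60 FPKM in db/m-veh. Against db/db-veh the libraries labelled db/db-GABP-KD were higher by a log2 fold change of 1.05 (95% interval 0.17 to 1.92, limma adjusted p = 0.345), the largest of any member there. As deposited db/db-GABP-KD 2 lies just below db/db-veh 1, and after median of ratios no library overlaps and the log2 fold change is 0.50. In db/db-veh over db/m-veh it was -0.52 (95% interval -1.39 to 0.35, limma adjusted p = 0.682), and in db/m-GABP-OE 0.40 (95% interval -0.47 to 1.28, limma adjusted p = 0.625), or 0.00 after median of ratios.

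Of the factors that load and start the helicase, Cdt1 was the most uneven. It was at 5.50, 0.853 and 0.272 FPKM in the libraries labelled db/db-GABP-KD, 0.751, 0.165 and 2.94 FPKM in db/db-veh kidneys, 0.353, 0.919 and 0.964 FPKM in db/m-GABP-OE kidneys and 0.662, 0.467 and 0.852 FPKM in db/m-veh. Libraries db/db-GABP-KD 1 and db/db-veh 3 stand far above the other 10, and the 3 comparisons of Cdt1 gave log2 fold changes of 0.38, 0.31 and 0.07 for db/db-GABP-KD, db/db-veh and db/m-GABP-OE, each with an SE of 0.61. Cdc45, which travels with the helicase, had 19 fragments in the libraries labelled db/db-GABP-KD, 22 in db/db-veh kidneys, 32 in db/m-GABP-OE kidneys and 14 in db/m-veh. Cdc6 had 34 fragments in the libraries labelled db/db-GABP-KD, 13 in db/db-veh kidneys, 13 in db/m-GABP-OE kidneys and 8 in db/m-veh, and db/db-GABP-KD 1 holds the only library at FPKM 0.3 or more (0.543). The ratio of Cdc6 between the libraries labelled db/db-GABP-KD and db/db-veh was 2.41 (95% interval 1.24 to 4.98) per fragment sequenced, and 1.47 (0.755 to 3.03) per nuclear fragment. For Cdc45 those ratios were 0.796 (95% interval 0.407 to 1.54) and 0.484 (0.248 to 0.938). By library Cdc45 had 10, 1 and 21 fragments in db/m-GABP-OE kidneys, against 8, 2 and 4 in db/m-veh, so the third db/m-GABP-OE library holds most of them, and no ratio is given. The intervals given with these ratios hold counting error alone.

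The enzymes that supply deoxynucleotides did not pass the test either. Rrm1 and Rrm2, the subunits of ribonucleotide reductase, averaged 0.523 ± 0.0505 and 0.614 ± 0.196 FPKM in db/m-GABP-OE, against 0.465 ± 0.0945 and 0.275 ± 0.206 in db/m-veh (SD, n = 3 each). Rrm2, the subunit whose amount follows S phase, had a log2 fold change of 0.54 (95% interval 0.04 to 1.04, limma adjusted p = 0.293), with 46 fragments in db/m-GABP-OE, against 20 in db/m-veh, and db/m-veh 1 lies among the db/m-GABP-OE libraries' levels. Between the db/db groups Rrm2 was at 0.427, 0.336 and 0.411 in the libraries labelled db/db-GABP-KD, against 0.266, 0.281 and 0.188 in db/db-veh, with no overlap and a log2 fold change of 0.26. Tyms, which makes thymidylate, and Tk1, which salvages thymidine, had log2 fold changes of -0.18 and 0.39 in db/m-GABP-OE, -0.48 and -0.01 for db/db-veh, and 0.44 and -0.03 in the libraries labelled db/db-GABP-KD. Tyms was the only S phase gene with a negative value in db/m-GABP-OE.

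Mki67, which coats mitotic chromosomes and marks cycling cells, was the member called. It was at 0.353, 0.220 and 0.424 FPKM in the libraries labelled db/db-GABP-KD, 0.425, 0.245 and 0.505 FPKM in db/db-veh kidneys, 1.01, 1.24 and 1.04 FPKM in db/m-GABP-OE kidneys and 0.304, 0.160 and 0.128 FPKM in db/m-veh. The db/m-GABP-OE libraries lie above all other libraries, and the other 3 groups overlap. Its fragments numbered 92, 121 and 90 in db/m-GABP-OE, against 28, 11 and 12 in db/m-veh, a ratio of 5.50 (95% interval 4.08 to 7.55), or 4.05 (3.00 to 5.56) per nuclear fragment. Both intervals hold counting error alone. The log2 fold change was 1.20 (SE 0.23, limma adjusted p = 0.0131), on a scale that understates the change of low genes. The call ended after median of ratios (0.94, adjusted p = 0.0968), after quantile normalization (0.86, 0.105), after scaling to the nuclear FPKM sum (0.83, 0.299) and on leaving out library 2 (0.0623) or 3 (0.0919) of db/m-veh or library 2 of db/m-GABP-OE (0.0789), and the direction held in each. Over all settings tried the adjusted p ran from 5.91e-05 (library weights) to 0.299. For db/db-veh kidneys the log2 fold change was 0.35 (95% interval -0.14 to 0.84, limma adjusted p = 0.598), and in the libraries labelled db/db-GABP-KD -0.10 (95% interval -0.58 to 0.39, limma adjusted p = 0.807).

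Top2a, which untangles DNA before chromosomes part, was likewise highest in db/m-GABP-OE, at a lower level, and did not reach the filter. It was at 0.223, 0.0776 and 0.126 FPKM in the libraries labelled db/db-GABP-KD, 0.0982, 0 and 0.130 FPKM in db/db-veh kidneys, 0.590, 0.457 and 0.297 FPKM in db/m-GABP-OE kidneys and 0.0971, 0.0163 and 0 FPKM in db/m-veh. All db/m-GABP-OE libraries lie above all others, and it had 111 fragments in db/m-GABP-OE, against 9 in db/m-veh, a ratio of 11.4 (95% interval 5.80 to 25.6), or 8.41 (4.27 to 18.9) per nuclear fragment. With no filter on low values its log2 fold change was 0.81 (limma adjusted p = 0.0201). It reached FPKM 0.3 only in db/m-GABP-OE, in 2 libraries. The libraries labelled db/db-GABP-KD had 31 fragments, against 15 in db/db-veh, and the interval of that ratio, 1.90 (95% interval 0.997 to 3.80), takes in 1. All these intervals of Top2a ratios hold counting error alone.

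Cenpa, the histone variant that marks centromeres, was at 0.909, 0.378 and 0.510 FPKM in the libraries labelled db/db-GABP-KD, 0.252, 0.155 and 0.244 FPKM in db/db-veh kidneys, 1.08, 0.932 and 0.397 FPKM in db/m-GABP-OE kidneys and 0.0746, 0.200 and 0.274 FPKM in db/m-veh. It was higher without overlap in db/m-GABP-OE over db/m-veh and in the libraries labelled db/db-GABP-KD over db/db-veh. This held as deposited and after median of ratios, and of the members tested only Cenpa did so in both. Of all genes, 30.4% and 17.3% lay so in these comparisons as deposited, and 9.72% and 4.63% after median of ratios. The share of genes in both was not counted. Cenpa had log2 fold changes of 0.90 (95% interval 0.34 to 1.47, limma adjusted p = 0.0963) and 0.59 (95% interval 0.03 to 1.15, limma adjusted p = 0.345), and neither passed. Without db/db-GABP-KD 1 in the shared fit, the first had an adjusted p of 0.0473, and over all settings it ran from 0.00223 (library weights) to 0.769 (limma). Ube2c, the ubiquitin-conjugating enzyme of the anaphase-promoting complex, was at 1.91, 0.0448 and 0.766 FPKM in the libraries labelled db/db-GABP-KD, 0, 0.150 and 1.20 FPKM in db/db-veh kidneys, 0.980, 1.55 and 1.16 FPKM in db/m-GABP-OE kidneys and 0.757, 0.282 and 0.124 FPKM in db/m-veh. The db/m-GABP-OE libraries lie above db/m-veh, while the db/db groups run from 0 to 1.91. Its log2 fold change in db/m-GABP-OE was 1.01 (95% interval -0.01 to 2.04, limma adjusted p = 0.338). Its exons share 22.8% of their length with those of Tnnc2 on the other strand, which was listed at 0 in every library.

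Kinases of mitosis gave wide ranges. Plk1, which drives entry into mitosis and spindle assembly, was at 1.40, 0.742 and 1.36 FPKM in the libraries labelled db/db-GABP-KD, 0.872, 0.118 and 2.37 FPKM in db/db-veh kidneys, 0.453, 1.59 and 1.06 FPKM in db/m-GABP-OE kidneys and 0.199, 0.334 and 0.243 FPKM in db/m-veh. Every db/m-GABP-OE library lies above every db/m-veh library, db/db-veh 3 is the highest of the 12 and db/db-veh 2 the lowest. The log2 fold changes were 0.95 (95% interval 0.04 to 1.86, limma adjusted p = 0.311) for db/m-GABP-OE and 0.83 (95% interval -0.08 to 1.74, limma adjusted p = 0.479) for db/db-veh, and after median of ratios the db/m-GABP-OE libraries overlap db/m-veh. Cdk1, the kinase that triggers mitosis, had 55 fragments in db/m-GABP-OE, against 3 in db/m-veh (1 in each library), a ratio of 17.0 (95% interval 5.51 to 84.8). Its levels of 1.15, 0.307 and 0.231 FPKM in the libraries labelled db/db-GABP-KD, 0.179, 0.0263 and 0.581 in db/db-veh and 0.404, 0.627 and 0.165 in db/m-GABP-OE overlap one another. All 3 db/m-veh libraries are near 0, and db/db-veh 2, with 1 fragment, is as low as they are. On the log2 scale the db/m-GABP-OE change was 0.74 (95% interval 0.06 to 1.43, limma adjusted p = 0.285). Aurkb, of the chromosomal passenger complex, had 24 fragments in db/m-GABP-OE, against 3 in db/m-veh, a ratio of 7.41 (95% interval 2.25 to 38.4). Its close relative Aurka, which acts at spindle poles, had 21 fragments in db/m-GABP-OE, against 7 in db/m-veh, and db/m-GABP-OE 3 had none. That is a ratio of 2.78 (95% interval 1.14 to 7.73). The ratios of Cdk1, Aurkb and Aurka are per fragment sequenced, and their intervals hold counting error alone. Per nuclear fragment each is lower, and the interval of Aurka then takes in 1.

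**Figure D5:**
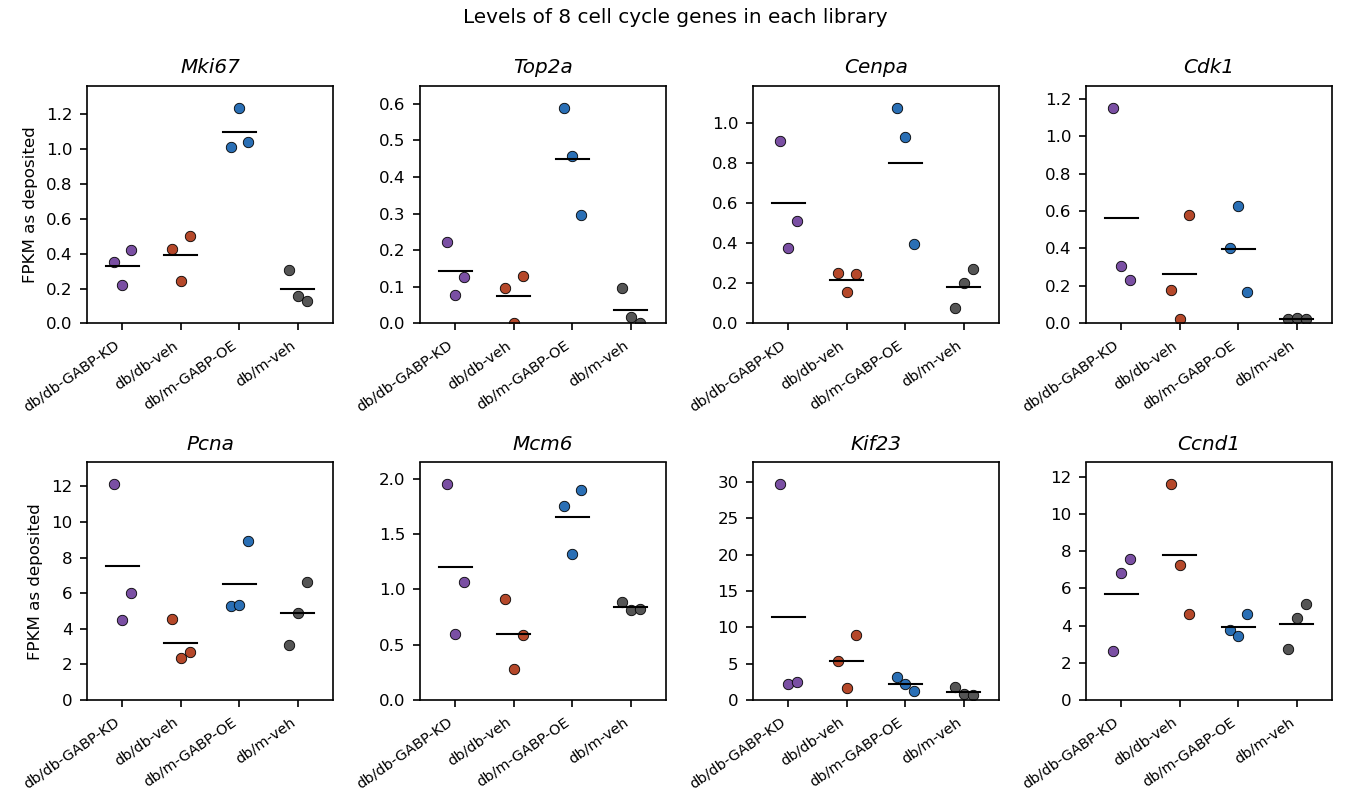
FPKM as deposited of 8 members in each library (points, mean as a bar), with a scale of its own for each gene. Mki67 and Top2a are highest in all 3 db/m-GABP-OE libraries, Cdk1 is near 0 in db/m-veh, and single libraries set the means of Kif23 and Pcna in the group labelled db/db-GABP-KD.

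Kif23, a kinesin that bundles the central spindle in cytokinesis, differed from the rest of its role in level. It was at 29.7, 2.21 and 2.43 FPKM in the libraries labelled db/db-GABP-KD, 5.39, 1.61 and 8.96 FPKM in db/db-veh kidneys, 3.14, 2.18 and 1.22 FPKM in db/m-GABP-OE kidneys and 1.72, 0.762 and 0.745 FPKM in db/m-veh, the best measured mitosis gene with 3894 fragments. Library db/db-GABP-KD 1 alone is far above the other 2 of its group, and all db/db-veh libraries but the second lie above db/m-veh. The log2 fold change was 1.69 (95% interval 0.16 to 3.23, limma adjusted p = 0.378) in db/db-veh, the largest of any member there, with 931 fragments in db/db-veh, against 220 in db/m-veh. After median of ratios the libraries do not overlap and it was 2.04 (adjusted p = 0.212), and of the settings tried it passed here only with library weights (adjusted p = 0.0113) or after median of ratios without db/db-GABP-KD 1 (0.0495), with a range of 0.0113 to 0.843 over all settings. In the libraries labelled db/db-GABP-KD it was 0.34 over db/db-veh, a value that rests on db/db-GABP-KD 1: without that library it was -0.80, and after median of ratios -0.21. In db/m-GABP-OE it was 0.76. Markers of tubule injury (6 of 6 in the table, Havcr1 and Lcn2 among them) summed to 209 to 3439 FPKM in the libraries labelled db/db-GABP-KD, 66.4 to 688 in db/db-veh, 216 to 504 for db/m-GABP-OE and 79.5 to 360 in db/m-veh, and their part in the levels of Kif23 was not tested.

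The cyclins of mitosis, Ccna2, Ccnb1 and Ccnb2, which activate Cdk1, showed no call. Ccnb2 averaged 0.444 ± 0.346 FPKM in the libraries labelled db/db-GABP-KD, 0.483 ± 0.356 in db/db-veh kidneys, 1.10 ± 0.563 in db/m-GABP-OE kidneys and 0.642 ± 0.222 in db/m-veh (SD, n = 3 each). Ccna2 had log2 fold changes of 0.24, 0.03 and 0.20 in the 3 comparisons (db/db-GABP-KD, db/db-veh and db/m-GABP-OE), and Ccnb1, below the filter, had 14 fragments in the libraries labelled db/db-GABP-KD, 7 in db/db-veh kidneys, 22 in db/m-GABP-OE kidneys and 6 in db/m-veh. Foxm1, the transcription factor that drives these genes, averaged 0.257 ± 0.215 FPKM in the libraries labelled db/db-GABP-KD, 0.198 ± 0.134 in db/db-veh kidneys, 0.222 ± 0.0762 in db/m-GABP-OE kidneys and 0.215 ± 0.153 in db/m-veh (SD, n = 3 each), and its 3 log2 fold changes lay between -0.03 and 0.10. Ccna2 shares 12.5% of its exon length with Exosc9 on the other strand, and the labels do not state whether counting used strand. Smaller shares overlap more abundant genes on the other strand. These are 5.96% of Cdc45 (Ufd1, mean FPKM 5.50), 2.84% of Cdc20 (Elovl1, 11.1) and 1.45% of Mcm7 (Cops6, 8.41).

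Among spindle checkpoint and exit genes, Bub1b, a brake on anaphase, averaged 0.479 ± 0.191 FPKM in db/m-GABP-OE kidneys and 0.195 ± 0.132 in db/m-veh, and Cdc20, the activator that the checkpoint holds back, 0.778 ± 0.664 and 0.494 ± 0.279 (SD, n = 3 each), where db/m-GABP-OE 2 was the highest library at 1.54. Bub1 had 7 and 8 fragments in those groups. Birc5, a passenger protein, was nearly level in db/m-GABP-OE, at 0.260, 0.273 and 0.274 FPKM, against 0.321, 0.0863 and 0.157 in db/m-veh. Tpx2, which seeds spindle microtubules and activates Aurka, was at 0.166, 0.639 and 0.423 FPKM in db/m-GABP-OE, against 0.117, 0.0628 and 0.0458 in db/m-veh, with no overlap. It had 53 fragments in db/m-GABP-OE, against 9 in db/m-veh, a ratio of 5.45 (95% interval 2.67 to 12.6, counting error only) per fragment sequenced. With no filter its log2 fold change was 0.63 (limma adjusted p = 0.0826).

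The remaining mitosis genes are motors and kinetochore proteins at the limit of detection. Cenpe, a kinetochore motor, was lower in every library labelled db/db-GABP-KD, at 0.0549, 0.162 and 0.132 FPKM, against 0.428, 0.166 and 0.181 FPKM in db/db-veh. Fragments numbered 24 and 48 in these groups, a ratio of 0.461 (95% interval 0.270 to 0.767, counting error only) per fragment sequenced. By library they numbered 4, 12 and 8, against 25, 11 and 12, so the db/db-veh total leans on db/db-veh 1. As Cenpe is below the level set for testing, no decrease is shown. It had 76 fragments in db/m-GABP-OE, against 32 in db/m-veh, again with no overlap as deposited. Kif20a, a kinesin of cytokinesis, had 13 fragments in the libraries labelled db/db-GABP-KD, 0 in db/db-veh kidneys, 21 in db/m-GABP-OE kidneys and 7 in db/m-veh. Set against a floor of 3 fragments for the db/db-veh group, it stood 3.99-fold higher in the libraries labelled db/db-GABP-KD, or 2.43-fold per nuclear fragment. The 13 fragments were taken as exact there, so neither value is a lower bound. By library they numbered 4, 1 and 8, and all 7 fragments of db/m-veh lay in db/m-veh 3. Kif20a exons share 29.3% of their length with Cdc23 on the other strand. Cenpf and Kif11 stayed at or under FPKM 0.138 in all libraries, with 56 and 48 fragments in total. The intervals of their ratios take in 1 in each comparison, so a difference was not detectable at this depth.

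Sums of 6 marker lists were higher as deposited in db/m-GABP-OE kidneys, and those of other lists overlapped db/m-veh. Macrophage markers (7 of 7 in the table, all above 0) summed to 116 to 213 FPKM in db/m-GABP-OE, against 25.3 to 29.8 in db/m-veh. Lymphocyte markers (7 of 8 in the table, all above 0) summed to 6.06 to 12.1, against 1.27 to 2.82, fibroblast and mural markers (7 of 7) to 214 to 298, against 107 to 150, and endothelial markers (7 of 7) to 137 to 215, against 78.4 to 101. Thick ascending limb markers (5 of 5) summed to 163 to 181 in db/m-GABP-OE kidneys, against 74.6 to 104 in db/m-veh, and adipocyte markers (5 in the table, Lep at 0 in both groups and Adipoq in db/m-veh) to 12.2 to 13.9, against 3.57 to 10.9. These 6 lists lay higher with no overlap as deposited, where 30.4% of all genes did, and the sums were not compared after median of ratios. Proximal tubule, distal convoluted tubule, collecting duct and tubule injury markers had sums that overlapped between these groups. Podocyte markers (5 of 5) overlapped, at 18.1 to 25.3 and 8.99 to 32.9, and so did red blood cell markers (6 of 6), at 301 to 944 with a median of 445, against 582 to 1187 with a median of 937. Nuclear fragments numbered 3.23 to 3.88 M in db/m-GABP-OE, against 1.51 to 2.94 M in db/m-veh. Their part in the levels of Mki67, Top2a and the other mitosis genes was not tested. In the libraries labelled db/db-GABP-KD macrophage markers summed to 16.5 to 82.8, against 13.0 to 25.4 in db/db-veh, and lymphocyte markers (7 in the table, 5 above 0) to 0.186 to 0.992 with a median of 0.220, against 0.605 to 1.11 with a median of 0.822 in db/db-veh.

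The G1 genes had the highest median level of the 3 roles with several members, though Ccne1 was low. Cdk4, the kinase partner of D-type cyclins, was at 9.95, 11.6 and 7.05 FPKM in the libraries labelled db/db-GABP-KD, 9.03, 2.48 and 8.50 FPKM in db/db-veh kidneys, 13.1, 15.2 and 15.3 FPKM in db/m-GABP-OE kidneys and 13.1, 8.58 and 14.7 FPKM in db/m-veh. Library db/db-veh 2 was the lowest, and the log2 fold change in db/db-veh over db/m-veh was -0.96 (95% interval -1.89 to -0.03, limma adjusted p = 0.416), or -0.62 after median of ratios. Cdk4 shares 19.7% of its exon length with Tspan31 on the other strand. Ccnd1, the D-type cyclin that mitogens induce, was at 2.64, 6.85 and 7.58 FPKM in the libraries labelled db/db-GABP-KD, 11.6, 7.25 and 4.62 FPKM in db/db-veh kidneys, 3.76, 3.46 and 4.62 FPKM in db/m-GABP-OE kidneys and 2.74, 4.39 and 5.16 FPKM in db/m-veh. The first 2 db/db-veh libraries lie above all libraries of db/m-veh, and the third lies within its range.

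For Ccnd1 the log2 fold change in db/db-veh was 0.81 (95% interval -0.09 to 1.70, limma adjusted p = 0.488), and after median of ratios, where its libraries did not overlap, 1.17. Against db/db-veh the libraries labelled db/db-GABP-KD were at -0.45, or -0.99 after median of ratios, the only G1 gene with a negative value there as deposited. Its exons share 23.4% of their length with LTO1 on the other strand. Ccnd2, another D-type cyclin, was at 0.164, 1.52 and 1.50 FPKM in the libraries labelled db/db-GABP-KD, 0.878, 0.483 and 0.360 FPKM in db/db-veh kidneys, 0.836, 0.942 and 0.878 FPKM in db/m-GABP-OE kidneys and 0.535, 0.671 and 0.819 FPKM in db/m-veh. Library db/db-GABP-KD 1 is the lowest of the 12 for Ccnd2 and for Ccnd1, and the db/m-GABP-OE libraries lie above db/m-veh by a narrow margin, with a log2 fold change of 0.24 that is -0.02 after median of ratios.

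Cdk2, the partner of cyclins E and A, was at 5.04, 1.37 and 0.686 FPKM in the libraries labelled db/db-GABP-KD, 0.877, 0.626 and 1.36 FPKM in db/db-veh kidneys, 1.73, 1.59 and 1.07 FPKM in db/m-GABP-OE kidneys and 1.00, 0.614 and 1.02 FPKM in db/m-veh. Library db/db-GABP-KD 1 stands apart, and its log2 fold change there, 0.70 (95% interval -0.21 to 1.61, limma adjusted p = 0.393), turned to -0.03 with library weights. The db/m-GABP-OE libraries lie above those of db/m-veh, with 0.51, and overlap them after median of ratios. Ccne1, cyclin E1, was low, with 20 fragments in the libraries labelled db/db-GABP-KD, 11 in db/db-veh kidneys, 19 in db/m-GABP-OE kidneys and 6 in db/m-veh. Stmn1, which destabilizes microtubules and is high in cycling cells, was at 7.95, 2.67 and 4.07 FPKM in the libraries labelled db/db-GABP-KD, 3.61, 1.89 and 2.17 FPKM in db/db-veh kidneys, 5.99, 5.63 and 6.42 FPKM in db/m-GABP-OE kidneys and 2.50, 4.66 and 6.69 FPKM in db/m-veh. Library db/m-veh 3 lies above the db/m-GABP-OE libraries and the other 2 of db/m-veh below them, and the log2 fold changes were 0.74 (95% interval -0.13 to 1.61, limma adjusted p = 0.365) in the libraries labelled db/db-GABP-KD, -0.70 (95% interval -1.57 to 0.17, limma adjusted p = 0.546) in db/db-veh and 0.44 (95% interval -0.43 to 1.31, limma adjusted p = 0.598) in db/m-GABP-OE.

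Other genes of the pathway gave no call either. Of 121 further cell cycle genes 84 were tested, and limma called 0 in each comparison. At an unadjusted p under 0.05, 10 of the 84 were higher in db/m-GABP-OE kidneys (11.9%, with 14.5% of all genes) and 0 lower. In db/db-veh 4 of the 84 were lower (4.76%, with 10.7% of all genes) and 0 higher. In the libraries labelled db/db-GABP-KD 4 of the 84 were higher (4.76%, with 13.7% of all genes) and 0 lower, so each of these 3 shares lies below that of all genes. Their median log2 fold change was 0.44 in db/m-GABP-OE (all genes 0.38), -0.07 in db/db-veh (-0.24) and 0.34 in the libraries labelled db/db-GABP-KD (0.42). Of the inhibitors, Cdkn1c, which holds cells out of the cycle, had 1.06 in db/m-GABP-OE (adjusted p = 0.364, limma), and Wee1, which restrains Cdk1, 0.96 (0.259). Cdkn1a, the p53 target that blocks cyclin-dependent kinases, averaged 9.39 ± 12.2 FPKM in the libraries labelled db/db-GABP-KD and 4.26 ± 6.56 in db/db-veh, a log2 fold change of 1.35 that turned to -0.51 with library weights. Trp53 itself stood at -0.84 in db/db-veh (limma adjusted p = 0.42). Of the E2F and MYB regulators, E2f5 had 0.86 in db/m-GABP-OE, E2f4 -0.70 in db/db-veh, and Myc 1.12 in the libraries labelled db/db-GABP-KD. Cks1b, a partner of cyclin-dependent kinases, had -0.91 in db/db-veh and 1.12 in the libraries labelled db/db-GABP-KD, comparisons that share the db/db-veh libraries.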

How the data were processed

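Kidney poly(A) RNA of 12 libraries was sequenced as paired ends. The deposited FPKM values were made by the authors, with HTSeq counting and build GRCm39 named in the submitters' processing notes; aligner, annotation and strand setting are not stated there. The values were 98.3% whole multiples of 1 fragment (tolerance 0.05) for genes with a GENCODE M21 exon length, so fragments were recovered, at 6.78 to 9.70 M per library. Low fragment numbers limit precision. Intervals of ratios are exact binomial on fragments pooled over the libraries of a group, so they leave out the spread between libraries.

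Genes at FPKM 0.3 or more in 3 libraries (12897) were fitted as log2(FPKM + 0.5) with limma (version 3.58.1, under R version 4.3.3), all 12 libraries and 4 groups in 1 fit with a variance trend, and p-values were adjusted over all genes tested. Median of ratios used 5884 genes. Python 3.11.15 served for the rest, with scipy 1.17.1, numpy 2.4.6, pandas 2.3.3 and, for figures, matplotlib 3.10.9. Simulated data with known changes served to test the fit. For 3 against 3 libraries the exact permutation test cannot go below 0.1.

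Members and lists were chosen with earlier results of these data known. All 42 members are named. Values in every library are given for members called, for the 5 largest changes of a comparison and for a set list of markers; other pathway genes are named where called or among the 2 largest changes of their list. Alternatives were other pseudocounts, filters, scalings, weights, a replicate block, 2-group fits, voom and leaving out each library. No pairing of libraries by replicate number was seen.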

Additional observations from a re-analysis of the deposited data

How the results depend on the processing

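Counts of calls depended on the settings. For db/m-GABP-OE, set beside db/m-veh, 245 genes were called, and 62 with pseudocount 0.1, 159 with a filter of FPKM 1, 27 after median of ratios, 15 with the nuclear FPKM sum, 33 after quantile normalization, 123 with no variance trend, 2757 with library weights, 590 in a fit of 2 groups and 62 with voom on fragments. For db/db-veh 12 genes were called, and 2 with no filter, 22 after median of ratios, 35 with the nuclear sum, 26 after quantile normalization, 642 with library weights, 19 in a fit of 2 groups and 5 with voom. For the libraries labelled db/db-GABP-KD 0 were called, and 1 with no filter, 5 after median of ratios, 6 with the nuclear sum, 11 after quantile normalization and 158 with library weights. Leaving out each library gave 39 to 559, 2 to 48 and 0 to 4 genes in these comparisons.

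Members called in db/m-GABP-OE were 1 of 33, beside 245 of all 12897 genes, and 0 after median of ratios, nuclear sum or quantile scaling. With no filter Mki67 and Top2a were called, and the count over all genes at that setting is not given here. Library weights called 11 of 33, beside 2757 of all 12897 genes. Leaving out libraries gave 0 to 2 members, beside 39 to 559 of all genes. In db/db-veh library weights called 1 (Kif23), beside 642 of all genes. Of the other cell cycle genes, Nuf2 was called in db/m-GABP-OE with no filter, again without a count over all genes. Leaving out libraries called 0 to 1 of them, beside 39 to 559 of all genes. With library weights 23 of 84 were called, beside 2757 of all 12897 genes.

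The mitosis median minus that of all genes was 0.36 in db/db-veh, and 0.88 with a filter of FPKM 1, 0.065 with the nuclear sum, 0.59 with library weights, 0.66 with voom and 0.28 to 0.60 on leaving out libraries. In db/m-GABP-OE it was 0.13, and 0.52 with pseudocount 0.1, 0.0073 with pseudocount 1, 0.58 with a filter of FPKM 1, 0.53 with library weights, 0.76 with voom and 0.037 to 0.32 on leaving out libraries. In the libraries labelled db/db-GABP-KD it was -0.17, and 0.057 with the nuclear sum, -0.36 with library weights, 0.14 with voom and -0.30 to -0.0090 on leaving out libraries. The S phase median there was -0.05, and 0.11 with a filter of FPKM 1.

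Added after seeing the data were voom with nuclear library sizes and median of ratios without db/db-GABP-KD 1. They called 5 and 77 genes in db/m-GABP-OE with 0 members each, 4 and 52 in db/db-veh, where the second called 1 member (Kif23), and 7 and 11 in the libraries labelled db/db-GABP-KD. With the first, the mitosis median stood 0.77 above all genes in db/db-veh and 0.80 above them in db/m-GABP-OE, and the S phase median 0.13 in the libraries labelled db/db-GABP-KD.

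Directions turned for Cdkn1b (0.031) and Tuba1b (0.058) in db/db-veh with the nuclear sum. In the libraries labelled db/db-GABP-KD they turned for Cdk4 with the nuclear sum (-0.025), for Cdk2 (-0.033), Cdkn1a (-0.51), Gadd45a (-0.48) and Myc (-0.19) with library weights, for Gadd45a without db/db-GABP-KD 1 (leaving out libraries gave -0.061 to 1.67), for Mki67 without db/db-GABP-KD 2 (-0.22 to 0.0051), and for Cdk2 (-0.13) and Gadd45a (-0.31) after median of ratios without db/db-GABP-KD 1. Kif23 there (0.34) turned after median of ratios (-0.21), with the nuclear sum (-0.33), after quantile normalization (-0.28), with library weights (-1.15), with voom and nuclear sizes (-0.34), after median of ratios without db/db-GABP-KD 1 (-1.06), and without db/db-GABP-KD 1 (-0.80) or db/db-veh 2 (-0.26), with leave-outs of -0.80 to 0.94. The cause was not tested.

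With a replicate block, 277 genes were called in db/m-GABP-OE kidneys and 13 in db/db-veh, Mki67 had an adjusted p of 0.0196, and no call of a member changed. Correlations of same-numbered libraries ran from -0.446 to 0.345, and those of differently numbered ones from -0.358 to 0.511. No pairing by number was seen, which does not show that there was none.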

Other observations

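Of 41 further mitosis genes, outside the 42, 17 were tested. Their median log2 fold change in db/m-GABP-OE kidneys was 0.38, with 0.38 for all genes, and 8 of the 17 lay above the all-gene median. The largest was Cdca3. This gene, a trigger of mitotic entry, averaged 1.47 ± 0.862 FPKM in db/m-GABP-OE kidneys and 0.298 ± 0.177 in db/m-veh (SD, n = 3 each). It had 117 and 23 fragments, a ratio of 4.71 (95% interval 2.99 to 7.72, counting error only) per fragment sequenced. Its log2 fold change of 1.23 had a limma adjusted p of 0.0658, which was 0.0301 without db/m-GABP-OE 1 and 0.0410 without db/db-GABP-KD 1. Nuf2, of the kinetochore, had 19 fragments in db/m-GABP-OE kidneys and 0 in db/m-veh, and was called with no filter (log2 fold change 0.28, limma adjusted p = 0.0436). The median over all genes with no filter was also 0.28, so this fold change is no larger than the shift of all genes. At 0 in all db/m-veh libraries, Nuf2 has no spread there, and the call is one at the floor.

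Mcm10, a replication factor, averaged 0.723 ± 0.418 FPKM in db/db-veh and 0.185 ± 0.147 in db/m-veh (SD, n = 3 each), a log2 fold change of 0.81 (limma adjusted p = 0.502). Gins4, of the replicative helicase, averaged 2.27 ± 2.04 and 4.22 ± 0.77 FPKM in the same groups, a log2 fold change of -1.01 (limma adjusted p = 0.365).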
